A study of Mus musculus with 2 samples.

Results

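The genes described here are 8 acute-phase and interleukin-6 (IL-6) pathway genes, Saa3, Hp, Lrg1, Il6, Osm, Il6ra, Il6st and Socs3, of 32286 features measured by single-cell RNA sequencing in mouse lung. They were chosen by symbol, with their levels, shares of positive cells and library ratios by cell class in these data already known, so those values are given as a description. The lungs came from BALB/c mice bearing tumours of 4T1 cells, a mouse mammary carcinoma line placed in the mammary fat pad, and were taken on day 14 after inoculation. 1 library came from mice given the S100A4-11 antibody and 1 from mice given IgG antibody. Strain, tumour and day were common to both libraries. The number and age of the animals behind each library, and the dose of either antibody, were not given in the sources used here. The protocol label calls the dissociated tissue tumour, whereas title, source and tissue labels say lung. With 1 library per group, no difference between the libraries had a replicate check, and no test was made.

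The acute-phase response is the change in secreted proteins that follows infection, injury or tumour growth. IL-6 binds its receptor chain, encoded by Il6ra, and the pair engages the signalling chain encoded by Il6st, which activates JAK kinases and the transcription factor STAT3. Oncostatin M, encoded by Osm, uses the same signalling chain with its own receptor chain, Osmr. STAT3, together with C/EBP and NF-kB factors, induces acute-phase genes and also Socs3, whose product shuts the receptor complex down. Saa3 encodes a serum amyloid A made mainly outside the liver in mice, and in lungs that have not yet been colonised by tumour cells it has been described as an attractant of myeloid cells. Hp encodes haptoglobin, which captures free haemoglobin, and Lrg1 encodes a secreted leucine-rich glycoprotein that modifies TGF-beta signalling in endothelium.

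After filtering and removal of doublets, 11750 S100A4-11 cells and 13658 IgG cells remained, with medians of 3661 and 4028 unique molecular identifiers (UMIs, each counting 1 captured transcript). The libraries shared 266 cell barcodes, 2.13% of the S100A4-11 barcodes and 1.85% of the IgG barcodes. Of 37 clusters, 32 took the name of 1 of 18 cell classes from marker genes, and 5 stayed unnamed with 683 S100A4-11 cells and 1058 IgG cells. The 14 classes with at least 100 cells in each library were compared. The median neutrophil marker was found in 98.0% of S100A4-11 and 97.5% of IgG neutrophil-like cells, against 8.01% and 9.75% of other cells. The median classical monocyte marker was found in 73.7% of S100A4-11 and 71.8% of IgG classical monocyte-like cells, against 6.72% and 5.67% of other cells. The neutrophil-like class included a cluster led by Ngp, Cd177 and Ly6g. Dendritic cell-like cells carried their markers at lower rates, with medians of 33.3% in S100A4-11 and 35.1% in IgG. Lower still were gamma-delta T or innate lymphoid-like cells, at 15.8% and 17.9%, a class named on 3 of 11 markers. A level is the UMIs of a gene per 1000000 UMIs of the class (CPM), a ratio is S100A4-11 over IgG, and parentheses hold exact 95% intervals that cover counting error only. A ratio was called past the fold at 1.5 or more, or 1/1.5 or less, with at least 50 UMIs of the gene over both libraries.

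By the GENCODE annotation of GRCm38, Saa3 lies on chromosome 7 at 46711998 to 46715700, minus strand, and Hp on chromosome 8 at 109575128 to 109579172, minus strand. Lrg1 lies on chromosome 17 at 56119678 to 56122001, minus strand. The ligand genes are Il6 on chromosome 5 at 30013114 to 30019981 and Osm on chromosome 11 at 4236420 to 4241026, both on the plus strand. The receptor genes are Il6ra on chromosome 3 at 89864059 to 89913196, minus strand, and Il6st on chromosome 13 at 112464070 to 112510086, plus strand. Socs3 lies on chromosome 11 at 117966079 to 117970047, minus strand. Il6ra overlaps Gm42809 on the opposite strand, and the other 7 genes overlap no annotated gene.

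Proximal promoters are shown for Saa3 and Lrg1, the members with the lowest ratios in classical monocyte-like cells, and for Il6 and Socs3, the ligand and the brake of the pathway. The RefSeq promoter table (GRCm38.p6) held 6 of the 8 members. Each line gives the bases from 250 before the start site up to it, or up to the first exon of the gene in the GENCODE annotation where that begins earlier, as for Saa3, Lrg1 and Socs3. Lines read 5′ to 3′ on the gene's strand, with motif matches in capitals.
Saa3, chr7:46715701-46715926, minus strand: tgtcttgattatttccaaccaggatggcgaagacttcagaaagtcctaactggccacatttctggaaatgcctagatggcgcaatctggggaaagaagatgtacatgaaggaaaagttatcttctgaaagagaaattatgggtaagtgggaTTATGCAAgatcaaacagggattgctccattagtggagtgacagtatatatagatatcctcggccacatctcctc
Lrg1, chr17:56122002-56122196, minus strand: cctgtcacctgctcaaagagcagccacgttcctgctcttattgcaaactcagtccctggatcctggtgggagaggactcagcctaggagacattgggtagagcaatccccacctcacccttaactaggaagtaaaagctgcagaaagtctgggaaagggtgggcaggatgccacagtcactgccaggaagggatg
Il6, chr5:30012864-30013113, plus strand: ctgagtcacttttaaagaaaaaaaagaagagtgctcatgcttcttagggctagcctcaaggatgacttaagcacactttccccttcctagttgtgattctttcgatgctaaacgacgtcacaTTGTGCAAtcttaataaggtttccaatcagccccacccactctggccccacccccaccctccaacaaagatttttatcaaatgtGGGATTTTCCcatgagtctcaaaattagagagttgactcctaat
Socs3, chr11:117969452-117969616, minus strand: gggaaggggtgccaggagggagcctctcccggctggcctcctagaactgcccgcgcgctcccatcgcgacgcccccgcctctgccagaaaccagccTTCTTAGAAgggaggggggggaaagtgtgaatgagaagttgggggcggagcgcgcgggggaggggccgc
Both strands of 300 bases, 250 before and 50 after each start site, were searched for the STAT motif TTCNNNGAA, the C/EBP motif TTGCNNAA and the NF-kB motif. Saa3 held a C/EBP match, TTATGCAA, whose first base lay at position -99 counted from the start site. Il6 held a C/EBP match at -128 and an NF-kB match, GGGATTTTCC, at -44. Socs3 held a STAT match, TTCTTAGAA, at -154. No match overlapped another. These letters were not in the windows of Lrg1, Il6ra and Il6st. Of 32851 promoters searched in the same way, 8.30% held the STAT motif, 10.8% the C/EBP motif and 4.51% the NF-kB motif, so a match is a description of the sequence.

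Over the 14 classes and 8 genes, 85 of 112 pairs of gene and class had at least 50 UMIs, and 19 of them were past the fold with a lower level in S100A4-11 and 7 with a higher one. In the classes with a lower pair between 2.3% and 15.9% of all genes were past the fold lower, and in those with a higher pair between 1.81% and 4.2% were past it higher. Hp accounted for 6 of the lower pairs, Lrg1 for 5, Saa3 for 4, Osm for 2, and Il6ra and Socs3 for 1 each. Over all cells, where 8.46% of 17107 genes with 50 UMIs were past the fold lower and 3.02% higher, Saa3 was at 45.0 CPM in S100A4-11 and 70.5 CPM in IgG, a ratio of 0.638 (0.609 to 0.669). The other 7 genes had ratios between 0.893 for Hp and 1.23 for Il6 over all cells. Ordered by level within a library, the 14 classes form 13 neighbouring pairs. The intervals of neighbours overlapped in 7 pairs for Socs3 in each library, and in 11 S100A4-11 and 12 IgG pairs for Il6, with 7 to 10 pairs for the other genes. The plot of levels by class shows Saa3, Hp and Lrg1 concentrated in few classes, while Il6st and Socs3 were spread over most.

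**Figure D1:**
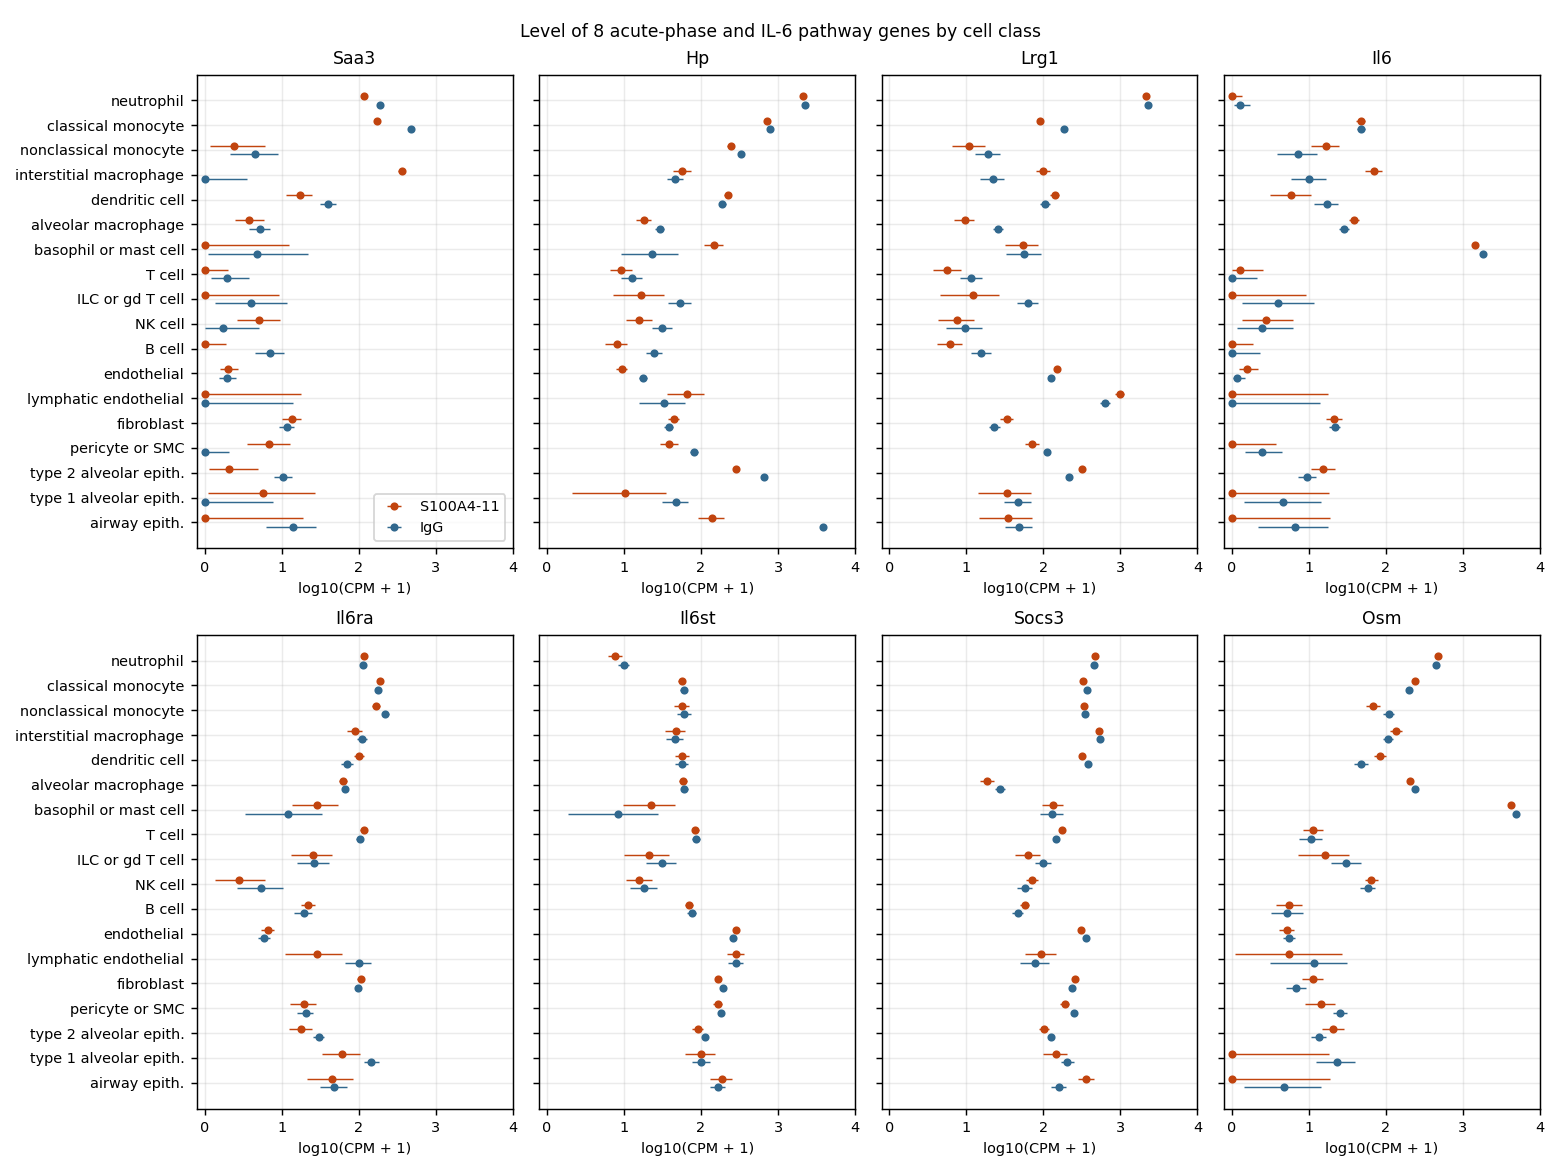
Level of each gene by cell class, as log10(CPM + 1), with exact 95% counting intervals; orange points are the S100A4-11 library and blue points the IgG library. Saa3 at 169 and 479 CPM stands apart between the libraries in classical monocyte-like cells, whereas Il6st at 55.2 and 58.7 CPM in the same cells does not.

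Saa3 was lower in S100A4-11 in the classes that held most of its transcripts, those of neutrophils and classical monocytes. Of 2649 Saa3 UMIs in S100A4-11 cells, 942 were in classical monocyte-like and 1241 in neutrophil-like cells, and of 5565 in IgG cells the same classes held 2659 and 2579. In classical monocyte-like cells Saa3 was at 169 CPM (159 to 181) in S100A4-11 and 479 CPM (461 to 498) in IgG, 2.83-fold lower (2.62 to 3.05). Of the 8962 genes with 50 UMIs in this class, 2.3% were past the fold lower, and the Saa3 ratio of 0.354 ranked 13 from the lowest. The median log2 ratio of those genes was -0.02. In neutrophil-like cells Saa3 was at 115 CPM (109 to 122) in S100A4-11 and 187 CPM (180 to 195) in IgG, a ratio of 0.615 (0.574 to 0.658) that ranked 180 of 8658 genes, of which 3.34% were past the fold lower.

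The difference lay mostly in cells with many Saa3 transcripts. Saa3 was detected in 23.7% (145 of 612) of S100A4-11 and 33.5% (180 of 538) of IgG classical monocyte-like cells. Cells with 1 to 4 Saa3 UMIs were 13.2% of the S100A4-11 class and 12.6% of the IgG class, and cells with 5 to 19 UMIs were 8.82% and 12.6%. Cells with 20 or more UMIs were 10 of 612 S100A4-11 cells (1.63%) and 44 of 538 IgG cells (8.18%). The 5 cells with most Saa3 held 17.9% of the class's Saa3 UMIs in S100A4-11 and 22.2% in IgG, and without them the ratio was 0.372. Median depth was 8848 UMIs in S100A4-11 and 10155 in IgG cells of the class; with every cell thinned to 500 UMIs, Saa3 was detected in 5.72% and 11.3%. Among B cell-like cells, which should hold no Saa3 of their own, 0 of 1340 S100A4-11 cells had a UMI, which allows a share of up to 0.224%, and 5 of 862 IgG cells (0.58%) had one, at median depths of 2811 and 2874 UMIs.

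**Figure D2:**
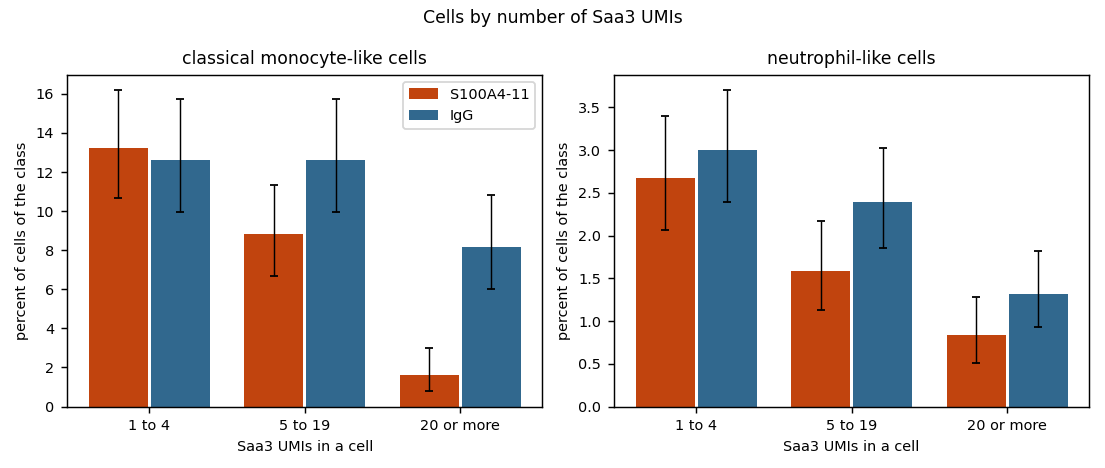
Percent of cells of each class with 1 to 4, 5 to 19 and 20 or more Saa3 UMIs, with exact 95% binomial intervals; orange bars are S100A4-11 and blue bars IgG, and the panels have different scales. Among classical monocyte-like cells the bars are close at 1 to 4 UMIs (13.2% and 12.6%) and far apart at 20 or more (1.63% and 8.18%).

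Neutrophil-like cells held Saa3 in a small minority of cells. It was detected in 5.09% of S100A4-11 and 6.71% of IgG neutrophil-like cells, or 2.71% and 3.39% after thinning to 500 UMIs, and 20 S100A4-11 cells (0.834%) and 37 IgG cells (1.32%) had 20 or more UMIs. The 5 cells with most Saa3 held 25.8% of the UMIs in S100A4-11 and 17.7% in IgG, and without them the ratio was 0.554. The ratio was 0.736 with each library clustered alone and 0.725 with every cell weighing the same, both short of the 1.5-fold line. The clusters of the class differed among themselves, as the bars by cluster show. In cluster 2, led by Cxcl3 and Stfa2l1, Saa3 was at 109 CPM in S100A4-11 and 208 CPM in IgG (ratio 0.524, 0.469 to 0.585). In cluster 3, led by Ccrl2, Il1rn and other genes, it was at 222 CPM in S100A4-11 and 296 CPM in IgG (0.749, 0.677 to 0.828). In cluster 9, led by Ngp, Cd177 and Ly6g, it was at 11.6 CPM in S100A4-11 and 99.6 CPM in IgG (0.116, 0.0817 to 0.161). In the class, 0.625% of S100A4-11 and 0.821% of IgG cells held 50% of the Saa3 UMIs. The counting intervals by cluster do not cover this spread among cells. The share of all genes past the fold was not counted by cluster. Over the whole neutrophil-like class the 9 immature granulocyte markers summed to 5098 CPM in S100A4-11 and 5165 CPM in IgG. Camp (ratio 1.10), Cebpe (1.38), Chil3 (1.38) and Ms4a3 (1.38) were higher in S100A4-11, none of them past the fold. Of the 5 that were lower, 3 were past the fold, all genes of granule proteases or peroxidase. Mpo had 6 UMIs in S100A4-11 and 138 in IgG, Elane 19 and 147, and Prtn3 137 and 438. The balance of the class did not hold in its cells with Saa3. In neutrophil-like cells with a Saa3 UMI, the 9 immature granulocyte markers summed to 80.1 CPM in 122 S100A4-11 cells and 3581 CPM in 188 IgG cells. In those without Saa3 they summed to 5348 CPM and 5288 CPM. The part of these markers in the Saa3 values was not tested. Cluster 28 went the other way, with 96 UMIs in 103 S100A4-11 cells and 8 UMIs in 109 IgG cells, and 5 cells held 87.5% of the S100A4-11 UMIs.

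**Figure D3:**
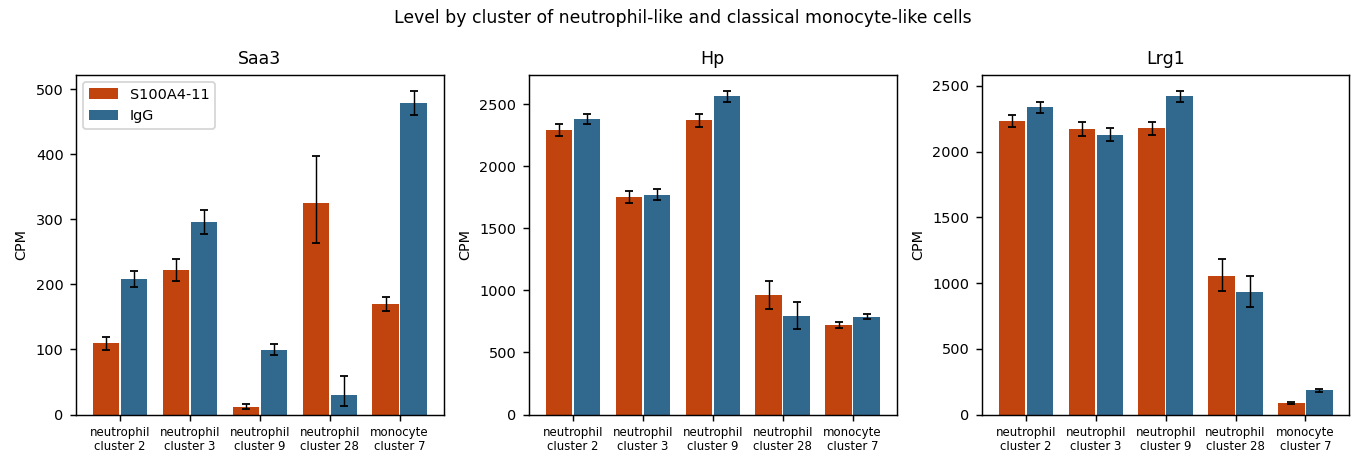
Level in CPM of Saa3, Hp and Lrg1 in the 4 neutrophil-like clusters and the classical monocyte-like cluster, with exact 95% counting intervals; orange bars are S100A4-11 and blue bars IgG. Saa3 is lower in S100A4-11 in 4 of the 5 clusters, and Hp and Lrg1 differ by less than 1.5-fold in each neutrophil-like cluster.

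Elsewhere single cells decided the Saa3 level. In interstitial macrophage-like cells all 347 S100A4-11 UMIs came from 3 of 106 cells, and 0 UMIs were found in 154 IgG cells, which allows up to 1.95% of cells with a UMI. In dendritic cell-like cells 26 UMIs in 4 of 156 S100A4-11 cells stood against 68 UMIs in 7 of 151 IgG cells, of which 5 cells held 97.1%. Of 7188 genes in this class, 6.02% were past the fold lower. Type 2 alveolar epithelial-like cells held 2 S100A4-11 UMIs and 50 IgG UMIs in 6 of 400 cells, and 15.9% of genes of this class were past the fold lower. Fibroblast-like cells were at 12.5 CPM in S100A4-11 and 10.6 CPM in IgG, a ratio of 1.18 (0.782 to 1.78). In IgG the order of classes was classical monocyte-like, neutrophil-like, dendritic cell-like and fibroblast-like, and from the fourth class on the intervals of all neighbours overlapped. In S100A4-11 the interstitial macrophage-like cells stood first at 361 CPM with all of its UMIs in those 3 cells, followed by the same 4 classes.

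Hp was highest in neutrophil-like cells, where 94.7% of S100A4-11 and 94.6% of IgG cells had a UMI, and it differed little between the libraries there. Its level was 2134 CPM (2107 to 2162) in S100A4-11 and 2269 CPM (2244 to 2295) in IgG, a ratio of 0.940 (0.925 to 0.957). In classical monocyte-like cells it was at 721 CPM in S100A4-11 and 790 CPM in IgG (0.913, 0.875 to 0.953), and in nonclassical monocyte-like cells at 241 CPM and 333 CPM (0.724, 0.629 to 0.834). Detection in classical monocyte-like cells was 88.1% in S100A4-11 and 88.7% in IgG (25.7% and 26.8% after thinning to 500 UMIs), against 1.49% and 3.36% in B cell-like cells. The 5 cells with most Hp held at most 5.18% of its UMIs in the neutrophil-like or classical monocyte-like class of either library. Dendritic cell-like cells were at 222 CPM in S100A4-11 and 188 CPM in IgG (1.18, 1.01 to 1.37). The first 5 classes, neutrophil-like, classical monocyte-like, type 2 alveolar epithelial-like, nonclassical monocyte-like and dendritic cell-like, stood in the same order in both libraries. The interval of nonclassical monocyte-like cells overlapped that of its neighbour on either side in S100A4-11 and on neither side in IgG. Below them, interstitial macrophage-like cells were at 56.2 CPM in S100A4-11 and 45.4 CPM in IgG (1.24, 0.846 to 1.80) and fibroblast-like cells at 43.3 CPM and 37.1 CPM (1.17, 0.939 to 1.44).

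All 6 lower Hp pairs lay outside the neutrophil and monocyte classes. In type 2 alveolar epithelial-like cells Hp was at 282 CPM in S100A4-11 and 661 CPM in IgG (0.426, 0.388 to 0.467), but 5 IgG cells held 51.7% of the UMIs. Those 5 cells had 454375 CPM of Scgb1a1, the marker of club cells, and 61.5 CPM of the type 2 marker Sftpc. Among cells with under 20 Scgb1a1 UMIs, Hp was at 271 CPM in 174 S100A4-11 cells and 240 CPM in 363 IgG cells, below the 333 CPM of IgG nonclassical monocyte-like cells. The 7 airway epithelial markers summed to 1422 CPM in S100A4-11 and 38203 CPM in IgG type 2 alveolar epithelial-like cells, and each of them was lower in S100A4-11. With each library clustered alone the Hp ratio in this class was 1.001. In the small airway epithelial-like class, 20 S100A4-11 cells held 28 Hp UMIs and 32 IgG cells held 1999, of which 5 cells held 84.3%.

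The other 5 lower Hp pairs had low levels in both libraries. Hp was at 6.996 CPM in S100A4-11 and 23.7 CPM in IgG B cell-like cells (0.296, 0.184 to 0.464), where 4.74% of genes were past the fold lower. Endothelial-like cells were at 8.33 CPM in S100A4-11 and 16.7 CPM in IgG (0.50, 0.399 to 0.624; 4.13% of genes lower). Alveolar macrophage-like cells were at 16.9 CPM and 27.98 CPM (0.605, 0.454 to 0.799; 4.39%). NK cell-like cells were at 14.7 CPM in S100A4-11 and 30.4 CPM in IgG (0.485, 0.283 to 0.814; 3.85%), and pericyte- or smooth muscle-like cells at 37.7 CPM and 79.1 CPM (0.477, 0.346 to 0.646; 4.77%). Neutrophil transcripts moved with these values. The 9 neutrophil markers summed to 318 CPM in S100A4-11 and 874 CPM in IgG B cell-like cells, to 578 CPM and 1077 CPM in endothelial-like cells, and to 455 CPM and 1535 CPM in alveolar macrophage-like cells, and all 9 were lower in S100A4-11 in each of these classes. Their part in the Hp values was not tested.

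Hp was also set against S100a9, an abundant neutrophil gene. Neutrophil-like cells held 26.3 Hp UMIs per 1000 UMIs of S100a9 in both libraries. Endothelial-like cells held 26.4 in S100A4-11 and 27.8 in IgG, T cell-like cells 25.1 and 32.1, interstitial macrophage-like cells 24.3 and 25.4, and pericyte- or smooth muscle-like cells 24.8 and 33.0. B cell-like cells held 41.5 in S100A4-11 and 47.4 in IgG, dendritic cell-like cells 61.0 and 69.4, fibroblast-like cells 65.2 and 49.9, NK cell-like cells 83.1 and 95.02, and alveolar macrophage-like cells 83.7 and 34.3. Classical monocyte-like cells held 1595 in S100A4-11 and 890 in IgG, nonclassical monocyte-like cells 1115 and 537, and type 2 alveolar epithelial-like cells 499 and 635. The plot against S100a9 shows that these 3 classes stand far to the right for Hp, and classical monocyte-like, type 2 alveolar epithelial-like and endothelial-like cells for Lrg1. Saa3 stood at 375 in S100A4-11 and 540.3 in IgG classical monocyte-like cells, and at 156 in S100A4-11 interstitial macrophage-like cells, where 3 cells held it all.

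**Figure D4:**
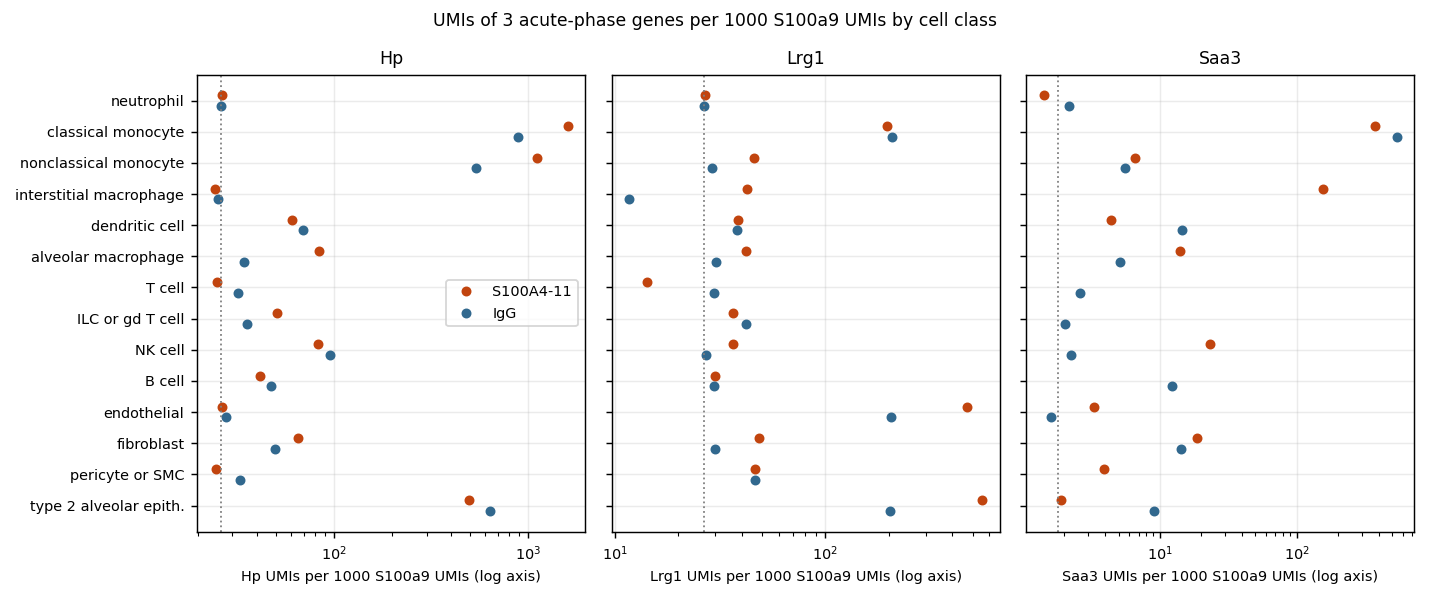
UMIs of Hp, Lrg1 and Saa3 per 1000 S100a9 UMIs by cell class on a log axis, with orange points for S100A4-11, blue points for IgG and a dotted line at the mean of the neutrophil-like values; values of 0 are not drawn. Hp in endothelial-like cells (26.4 and 27.8) lies at the line, and Hp in classical monocyte-like cells (1595 and 890) lies far above it.

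Lrg1, like Hp, was highest in neutrophil-like cells and close between the libraries there, but lower in S100A4-11 classical monocyte-like cells. Neutrophil-like cells were at 2167 CPM in S100A4-11 and 2289 CPM in IgG (0.947, 0.931 to 0.963), with a UMI in 96.2% and 95.9% of cells. Classical monocyte-like cells were at 88.5 CPM (80.9 to 96.7) in S100A4-11 and 184 CPM (173 to 195) in IgG, 2.08-fold lower (1.86 to 2.32), and the ratio of 0.481 ranked 36 of 8962 genes. Lrg1 was detected in 26.3% of S100A4-11 and 39.2% of IgG cells of the class, or 2.94% and 6.51% after thinning to 500 UMIs, against 1.42% and 2.09% of B cell-like cells before thinning. The 5 cells with most Lrg1 held 13.01% of its UMIs in S100A4-11 and 10.8% in IgG, and no S100A4-11 cell and 3 IgG cells had 20 or more.

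Neutrophil transcripts also differed in the classical monocyte-like class. The 9 neutrophil markers summed to 1418 CPM in S100A4-11 and 2306 CPM in IgG cells, with 5 of the 9 lower in S100A4-11. Without S100a8 and S100a9 they summed to 451 CPM and 516 CPM. S100a9 itself was at 452 CPM in S100A4-11 and 887 CPM in IgG cells of the class. Set against it, Lrg1 stood at 196 UMIs per 1000 S100a9 UMIs in S100A4-11 and 207 in IgG. In neutrophil-like cells Lrg1 stood at 26.7 and 26.5. The part of neutrophil transcripts in the Lrg1 value was not tested. The 8 classical monocyte markers summed to 3975 CPM in S100A4-11 and 3974 CPM in IgG, with 4 of them lower in S100A4-11. Of these only Vcan was past the fold, at 122 CPM in S100A4-11 and 234 CPM in IgG (0.523). Without the 36 S100A4-11 and 37 IgG cells that held a UMI of Cxcr2, Mmp9 or Retnlg, Lrg1 was at 77.7 CPM and 181 CPM (0.430) and Saa3 at 174 CPM and 501 CPM (0.347). With doublets kept, which changed the clusters, the Lrg1 ratio was 0.687 and no longer past the fold, whereas that of Saa3 was 0.347.

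Among the compared classes outside the myeloid cells, Lrg1 was highest in type 2 alveolar epithelial-like and endothelial-like cells. The smaller type 1 alveolar epithelial-like class held 7 Lrg1 UMIs in 42 S100A4-11 cells and 25 in 132 IgG cells. Type 2 alveolar epithelial-like cells were at 313 CPM in S100A4-11 and 212 CPM in IgG (1.48, 1.33 to 1.63), and endothelial-like cells at 148 CPM and 123 CPM (1.20, 1.13 to 1.28). Within endothelial-like cells the level was 1071 CPM in S100A4-11 and 733 CPM in IgG (1.46, 1.33 to 1.61) in cluster 27, led by Slc6a2, Cpe and Vwf. The other 4 endothelial-like clusters were at 11.7 to 105 CPM in S100A4-11 and 21.1 to 107 CPM in IgG. Lymphatic endothelial-like cells, 33 in S100A4-11 and 35 in IgG, were at 980 CPM and 627 CPM (1.56, 1.27 to 1.92), and 5 cells held 66.5% and 54.5% of the UMIs. Pericyte- or smooth muscle-like cells were at 71.0 CPM in S100A4-11 and 111 CPM in IgG (0.642, 0.507 to 0.805), with 46.6 and 46.1 Lrg1 UMIs per 1000 S100a9 UMIs. The lower values in B cell-like, T cell-like and alveolar macrophage-like cells were under 25 CPM in both libraries, at ratios of 0.345, 0.442 and 0.344 (3.27% of genes were past the fold lower in T cell-like cells). The ratio in B cell-like cells was 1.02 with doublets kept, and 0.664 without the 5 cells with most UMIs. In interstitial macrophage-like cells Lrg1 was at 98.8 CPM in S100A4-11 and 21.0 CPM in IgG, but 5 S100A4-11 cells held 98.9% of the UMIs and the ratio was 0.307 without the 5 cells with most UMIs; 3.77% of genes of this class were past the fold higher.

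Monocytes with Saa3 also held more Lrg1 and Hp. Classical monocyte-like cells with a Saa3 UMI had Lrg1 at 191 CPM in S100A4-11 and 352 CPM in IgG, against 55.4 CPM and 87.8 CPM in cells without Saa3. Hp was at 917 CPM in S100A4-11 and 1070 CPM in IgG cells with Saa3, against 658 CPM and 630 CPM in cells without it. Lrg1 was lower in S100A4-11 both in cells with and in cells without Saa3. Both Saa3 and Lrg1 had a UMI in 11.3% of S100A4-11 and 22.5% of IgG classical monocyte-like cells. The cells with Saa3 also held more neutrophil marker transcripts, 2279 CPM in S100A4-11 and 2716 CPM in IgG, against 1141 CPM and 2071 CPM without Saa3. They were also deeper, with medians of 9075 UMIs in S100A4-11 and 11466.5 UMIs in IgG, against 8760 and 9519.5 UMIs. The part of either in the association was not tested. Neutrophil-like cells differed. With Saa3 they had Lrg1 at 2083 CPM in S100A4-11 and 2196 CPM in IgG, against 2171 CPM and 2296 CPM without it. Their Hp was at 1882 CPM in S100A4-11 and 2401 CPM in IgG with Saa3, against 2147 CPM and 2259 CPM without it. Their neutrophil markers summed to 101218 CPM in S100A4-11 and 145563 CPM in IgG with Saa3, against 159472 CPM and 167736 CPM without it. Median depths were 3589 UMIs in S100A4-11 and 4516 UMIs in IgG with Saa3, against 3818 and 4047 UMIs. The part of either in these values was not tested.

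The ligands Il6 and Osm were both highest in the small basophil or mast cell-like class, 53 S100A4-11 and 48 IgG cells. Neither was past the fold in classical monocyte-like or alveolar macrophage-like cells. Il6 was at 1460 CPM (1331 to 1598) in S100A4-11 and 1858 CPM (1698 to 2028) in IgG basophil or mast cell-like cells, with a UMI in 77.4% and 81.2% of cells. Osm was at 4205 CPM (3984 to 4435) and 4855 CPM (4595 to 5126) in the same cells, with a UMI in 96.2% and 100% of them. Among the compared classes Il6 was at 46.2 CPM in S100A4-11 and 46.9 CPM in IgG classical monocyte-like cells (0.987, 0.827 to 1.18), found in 12.1% and 14.7% of cells. Alveolar macrophage-like cells were at 38.1 CPM in S100A4-11 and 27.7 CPM in IgG (1.38, 1.11 to 1.71), and fibroblast-like cells at 20.6 CPM and 20.8 CPM (0.989, 0.726 to 1.34). Neutrophil-like cells held 0 Il6 UMIs in 2399 S100A4-11 cells, which allows a share of up to 0.125%, and 4 UMIs in 3 of 2802 IgG cells. Interstitial macrophage-like cells were at 68.7 CPM in S100A4-11 and 9.09 CPM in IgG, and all 66 S100A4-11 UMIs came from 5 of 106 cells. In type 2 alveolar epithelial-like cells, where 2.85% of genes were past the fold higher, the 27 S100A4-11 Il6 UMIs also came from 5 cells, against 45 UMIs in 22 IgG cells (1.70, 1.01 to 2.79).

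Osm was spread over the myeloid classes. It was at 477 CPM (464 to 490) in S100A4-11 and 451 CPM (440 to 462) in IgG neutrophil-like cells (1.06, 1.02 to 1.10), with a UMI in 54.4% and 55.1% of cells. Classical monocyte-like cells were at 239 CPM in S100A4-11 and 198 CPM in IgG (1.21, 1.12 to 1.31), and alveolar macrophage-like cells at 207 CPM and 236 CPM (0.880, 0.809 to 0.956). These 3 classes led in both libraries, and their intervals did not overlap with each other within a library. Interstitial macrophage-like cells were at 136 CPM in S100A4-11 and 106 CPM in IgG (1.28, 1.01 to 1.63), and NK cell-like cells at 64.3 CPM and 57.9 CPM (1.11, 0.824 to 1.5). Nonclassical monocyte-like cells were at 68.0 CPM in S100A4-11 and 109 CPM in IgG (0.625, 0.480 to 0.811), where 5.33% of genes were past the fold lower; the ratio was 0.872 with doublets kept and 0.339 with each library clustered alone. Dendritic cell-like cells were at 84.0 CPM in S100A4-11 and 47.2 CPM in IgG (1.78, 1.34 to 2.37), where 4.2% of genes were past the fold higher. The 8 classical monocyte markers summed to 1104 CPM in S100A4-11 and 747 CPM in IgG dendritic cell-like cells, 7 of them higher in S100A4-11 and 4 past the fold, and their part in the Osm value was not tested. The other pairs past the fold had at most 83 Osm UMIs in a library: fibroblast-like cells at 10.4 CPM in S100A4-11 and 5.88 CPM in IgG (1.81% of genes higher), type 2 alveolar epithelial-like cells at 19.9 CPM and 12.6 CPM, and pericyte- or smooth muscle-like cells at 13.3 CPM and 24.5 CPM. In each of these 3 classes 5 cells held over 60% of the Osm UMIs of either library. The ratio in fibroblast-like cells was 0.797 with doublets kept, and that in type 2 alveolar epithelial-like cells 0.139 without the 5 cells with most UMIs.

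**Figure D5:**
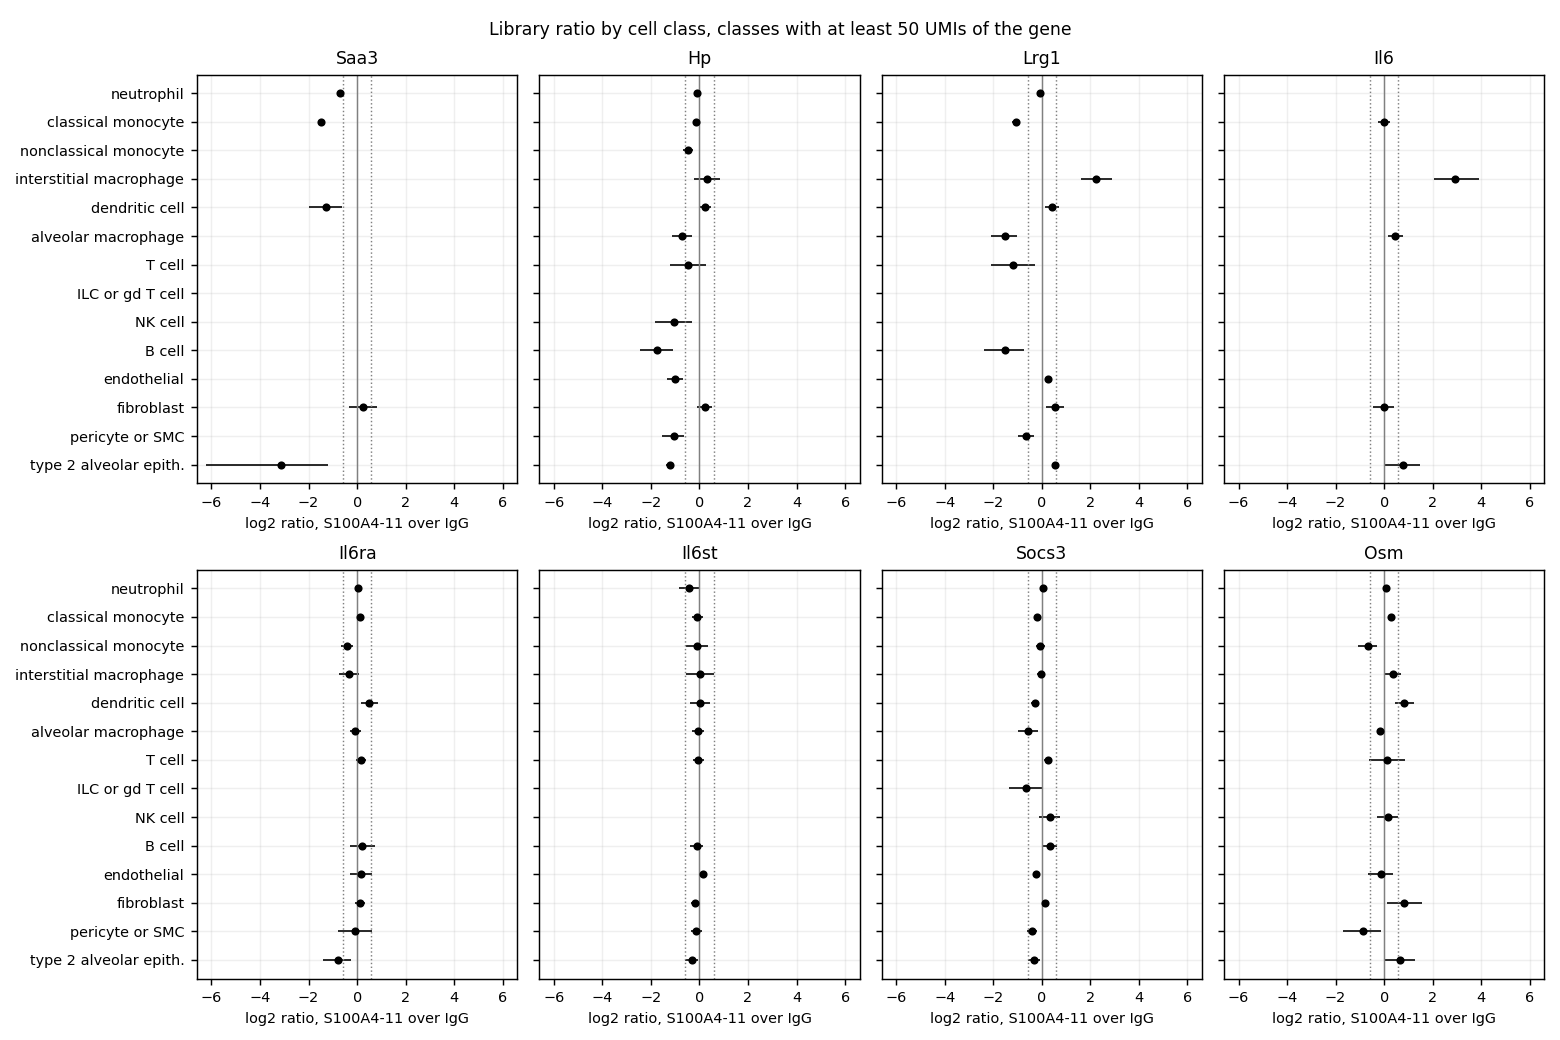
Log2 ratio of the level in S100A4-11 over IgG for each gene and class with at least 50 UMIs, with exact 95% counting intervals; dotted lines mark 1.5-fold. Saa3 in interstitial macrophage-like cells (347 and 0 UMIs) has no finite ratio and is not drawn; all 12 Il6st points lie between the dotted lines.

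The receptor chains led in different cells, and neither differed by 1.5-fold in a class that held it at a high level. Il6ra was highest in monocytes, at 190 CPM in S100A4-11 and 176 CPM in IgG classical monocyte-like cells (1.08, 0.990 to 1.18) and at 167 CPM and 222 CPM in nonclassical monocyte-like cells (0.751, 0.632 to 0.892). The intervals of these 2 classes overlapped in S100A4-11 and not in IgG. Neutrophil-like cells followed at 116 CPM in S100A4-11 and 113 CPM in IgG (1.03, 0.960 to 1.12), T cell-like cells at 115 CPM and 103 CPM (1.12, 0.969 to 1.30) and fibroblast-like cells at 106 CPM and 96.9 CPM (1.09, 0.952 to 1.25). Dendritic cell-like cells were at 99.5 CPM in S100A4-11 and 70.3 CPM in IgG (1.42, 1.11 to 1.81), and interstitial macrophage-like cells at 87.4 CPM and 110 CPM (0.796, 0.603 to 1.04). The other classes lay below 70 CPM in both libraries, down to endothelial-like cells at 5.58 CPM in S100A4-11 and 4.95 CPM in IgG, and the NK cell-like cells at 1.77 CPM and 4.35 CPM. The single pair past the fold was type 2 alveolar epithelial-like cells at 16.7 CPM in S100A4-11 and 29.2 CPM in IgG (0.572, 0.376 to 0.847), in a class where 15.9% of genes were past the fold lower.

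Il6st was highest in endothelial-like cells, at 288 CPM (279 to 297) in S100A4-11 and 259 CPM (251 to 266) in IgG (1.11, 1.06 to 1.16), and found in 55.0% and 54.7% of them. Fibroblast-like cells were at 167 CPM in S100A4-11 and 192 CPM in IgG (0.869, 0.784 to 0.962), and pericyte- or smooth muscle-like cells at 164 CPM and 179 CPM (0.915, 0.781 to 1.07); the intervals of these 2 classes overlapped in each library. The order of the first 7 classes was the same in both libraries, with type 2 alveolar epithelial-like, T cell-like, B cell-like and alveolar macrophage-like cells next, between 57.1 and 89.4 CPM in S100A4-11 and between 59.7 and 112 CPM in IgG. Neutrophil-like cells were last of the 14 classes, at 6.68 CPM in S100A4-11 and 8.93 CPM in IgG (0.748, 0.551 to 1.01). In the endothelial-like cluster 27, Il6st was at 874 CPM in S100A4-11 and 497 CPM in IgG (1.76, 1.57 to 1.96), while in the other 4 endothelial-like clusters the ratio lay between 0.880 and 1.08. Cluster 27 had 112 S100A4-11 and 131 IgG cells.

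Both chains of the IL-6 receptor were seen in the same cell in 28.6% of S100A4-11 and 33.5% of IgG classical monocyte-like cells, the highest share of the 14 classes in each library. The share was 20.5% and 19.9% in dendritic cell-like cells, 17.2% and 15.5% in alveolar macrophage-like cells, 15.5% and 18.0% in fibroblast-like cells, 12.3% and 17.5% in interstitial macrophage-like cells, 10.1% and 10.499% in T cell-like cells, 7.56% and 11.1% in nonclassical monocyte-like cells, 6.08% and 15.5% in type 2 alveolar epithelial-like cells, 1.61% and 1.58% in endothelial-like cells and 0.875% and 1.03% in neutrophil-like cells, S100A4-11 before IgG in each. These shares depend on depth, which ranged from 2599 to 11224 UMIs in the median over the 14 classes. For oncostatin M the receptor chain Osmr was in structural cells, at 88.5 CPM in S100A4-11 and 95.3 CPM in IgG endothelial-like cells (0.928, 0.861 to 1.0) and 94.0 CPM and 106 CPM in fibroblast-like cells (0.884, 0.770 to 1.01). Osmr and Il6st were seen together in 19.8% of S100A4-11 and 21.8% of IgG endothelial-like cells. In neutrophil-like cells, where Osm was highest among the compared classes, Osmr was at 2.23 CPM in S100A4-11 and 2.47 CPM in IgG.

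Socs3, the brake of the pathway, differed by less than 1.5-fold in 13 of 14 classes. It was at 524 CPM in S100A4-11 and 535 CPM in IgG interstitial macrophage-like cells (0.980, 0.874 to 1.10), and at 469 CPM and 450 CPM in neutrophil-like cells (1.04, 1.0 to 1.08). The intervals of these 2 classes overlapped in S100A4-11 and not in IgG. Classical monocyte-like cells were at 323 CPM in S100A4-11 and 369 CPM in IgG (0.874, 0.819 to 0.931), with a UMI in 62.9% and 71.7% of cells, and thinned to 500 UMIs in 12.7% and 15.1%. Endothelial-like cells were at 306 CPM in S100A4-11 and 361 CPM in IgG (0.847, 0.815 to 0.881). Their clusters differed, with a ratio of 0.494 (0.335 to 0.714) in cluster 21, led by Esr2 and Thsd7a, 0.784 (0.744 to 0.825) in cluster 0, led by Aplnr and Plvap, and 1.27 (1.12 to 1.45) in cluster 27. Alveolar macrophage-like cells were lowest, at 17.6 CPM in S100A4-11 and 26.1 CPM in IgG (0.675, 0.507 to 0.891). The single pair past the fold was gamma-delta T or innate lymphoid-like cells at 62.1 CPM in S100A4-11 and 98.8 CPM in IgG (0.628, 0.389 to 0.991), where 5 IgG cells held 80.3% of the UMIs and 6.12% of genes were past the fold lower. A Socs3 UMI was found in 15.8% of S100A4-11 and 9.26% of IgG cells of this class. The ratio was 1.63 without the 5 cells with most UMIs and 1.33 with every cell weighing the same.

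Genes of the pathway were counted from fixed lists in classical monocyte-like cells, where 2.3% of all genes were past the fold lower. These lists include the members described above. Of 26 listed acute-phase proteins, 7 had 50 UMIs, and only the members Saa3 and Lrg1 were past the fold. The median log2 ratio of these 7, members included, was -0.17 beside -0.02 over all genes of the class. C3, which encodes the central complement protein, was at 289 CPM in S100A4-11 and 257 CPM in IgG (1.13, 1.05 to 1.21), and Mt1, a metal-binding metallothionein gene, at 286 CPM and 246 CPM. None of 12 genes of JAK-STAT3 signalling and its brakes was past the fold; Stat3 was at 303 CPM in S100A4-11 and 289 CPM in IgG, and Jak1 at 212 CPM and 213 CPM. None of 17 STAT3 and C/EBP response genes was past the fold either, among them Cebpb, a C/EBP factor, at 3733 CPM in S100A4-11 and 3667 CPM in IgG. None of 13 genes for inputs that induce acute-phase genes was, with Il1b at 5228 CPM in S100A4-11 and 5630 CPM in IgG. None of 10 receptor genes for serum amyloid A, haptoglobin and LRG1 pathways was, with Cd14 at 2974 CPM and 3376 CPM and Tlr2 at 260 CPM and 226 CPM. Of 5 IL-6 family ligands, Clcf1 was past the fold at 10.1 CPM in S100A4-11 and 24.0 CPM in IgG (0.420, 0.302 to 0.578).

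In neutrophil-like cells 1 of 10 acute-phase proteins with 50 UMIs was lower, the member Saa3. Past the fold higher were 3, in a class where 2.46% of genes were. These were Orm1, which encodes an acid glycoprotein, at 10.6 CPM in S100A4-11 and 6.75 CPM in IgG (1.57, 1.18 to 2.08), and the serine protease inhibitor genes Serpina3g at 10.1 CPM and 4.72 CPM (2.14, 1.56 to 2.96) and Serpina3f at 3.06 CPM and 1.45 CPM (2.11, 1.17 to 3.88). None of 12 JAK-STAT3 genes and none of 12 input genes was past the fold, with Stat3 at 396 CPM in S100A4-11 and 383 CPM in IgG and Il1b at 21495 CPM and 18130 CPM (1.19, 1.18 to 1.19). Of 16 STAT3 and C/EBP response genes, Myc was past the fold higher at 2.97 CPM in S100A4-11 and 1.74 CPM in IgG, and the chemokine gene Ccl2 lower at 2.78 CPM and 5.15 CPM.

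The genes whose level over the 14 classes of both libraries was most like that of each member were found by Pearson correlation of log2(CPM + 10) over 28 values. These values share library and depth, and the 2 libraries of a class are not independent, so r is a description. For Saa3 they were F5 (0.898), which encodes coagulation factor V, Cxcl3 (0.834), a neutrophil-attracting chemokine gene, Gm14548, Smim3 and Mmp8 (0.797). For Hp they were Dmkn (0.907), Vmp1, Arg2, Ptgs2os2 and Csf3r (0.856), and for Lrg1 they were Lcn2 (0.904), Hdc, Cpne2, Mapk13 and Upp1 (0.866). Osm followed Fcgr3 (0.950), an immunoglobulin receptor gene of myeloid cells, Tyrobp, Sod2, Lilrb4a and Pgd (0.927). Il6 followed Idh1 (0.857), Cfb, Eif1a, Snx24 and Mmp19 (0.831), and Il6ra followed Ifi27l2a (0.854), Gm2a, Gpx1, Mpp1 and Tet2 (0.756). Il6st followed Camsap2 (0.888), Tet3, Sptbn1, Sun1 and Hibadh (0.858), and Socs3 followed Marcks (0.851), Ifitm2, Ifnar2, Ifitm3 and Cyb5r1 (0.778). Among the members themselves, Hp and Lrg1 were most alike (0.755) and Osm and Il6st least (-0.67).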

How the data were processed

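The deposited files hold, per the file headers, a matrix of whole UMI counts for each library, with 12506 S100A4-11 and 14411 IgG barcodes and 64695542 and 85458143 UMIs. The submitters' processing notes name Cell Ranger 7.1.0 and mm10, and the labels' protocols name a 10x 5' kit and DNBseq sequencing.

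Barcodes with under 200 genes (101 S100A4-11, 67 IgG) or over 15% mitochondrial UMIs (40 and 59) were dropped, as were 615 (4.97%) and 627 (4.39%) doublets called by Scrublet. Both libraries were clustered together, without integration, with Scanpy 1.11.5 (2000 variable genes, 30 components, 15 neighbours) and the Leiden method at resolution 1. A cluster took the class with the highest share of its markers present in 25% of cells and 2-fold above other cells, given 3 such markers. Within a lineage, a class with more markers among the cluster's 10 leading genes took precedence. A cluster stayed unnamed if led by markers of another class, mixed with another lineage, or shallow without leading markers. This rule was set after the clusters were seen. Free RNA was not corrected. Levels carry exact Poisson intervals, ratios conditional binomial and shares Clopper-Pearson intervals (SciPy 1.17.1); a limit at 0 counts 3 cells. The ratio, its interval and the fold call were tested on Poisson counts simulated for the classical monocyte-like class, without spread among cells. The level and share intervals were not tested in this way. Alternatives included TMM scaling (edgeR 4.0.16). Members, lists and markers were chosen with earlier results of these data known. All 8 members are named; of each list, genes past 1.5-fold and examples from the 4 with the highest CPM are named.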

Additional observations from a re-analysis of the deposited data

How the results depend on the processing

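Of 822 values of 81 single ratios under alternative settings, 701 stayed within the counting interval, 110 left it without turning the direction of a pair past the fold, and 11 turned it, of which 1 lay at 1.001. The Saa3 ratio in classical monocyte-like cells lay between 0.337 and 0.394, and was 0.394 with every cell weighing the same. That of Lrg1 in the same cells was 0.687 with doublets kept. It was 0.430 without cells holding a UMI of Cxcr2, Mmp9 or Retnlg, and 0.465 to 0.493 otherwise. Leaving out those cells was an alternative chosen after seeing the data. Cells with only other neutrophil markers, such as S100a8 and S100a9, stayed in. The Saa3 ratio in neutrophil-like cells was 0.736 with each library clustered alone, 0.554 without the 5 cells with most UMIs and 0.725 with every cell weighing the same. With each library clustered alone, no IgG cluster was classical monocyte-like, so those ratios have no value there. The ratio of the shares of classical monocyte-like cells with a Saa3 UMI, 0.708, was 0.504 after thinning to 500 UMIs. The 19 pairs past the fold lower became 11 without the 5 cells with most UMIs, 33 with no minimum of UMIs and 9 with at least 200 UMIs. The 7 pairs past the fold higher became 2, 12 and 2 under the same settings. Over the T cell-like, fibroblast-like, classical monocyte-like, endothelial-like, neutrophil-like and alveolar macrophage-like classes, 28 of 389 list members with 50 UMIs (each class and list counted) were past the fold lower and 9 higher, against 12 and 1 of 321 with at least 200 UMIs. Of all genes, 2.3% to 4.39% were past it lower in these classes other than fibroblast-like cells. In neutrophil-like cells 2.46% and in fibroblast-like cells 1.81% of all genes were past it higher. The lower share of fibroblast-like cells and the higher share of the remaining classes are not given here, and the lists include the members. The direction turned for these ratios. With doublets kept it was 1.02 for Lrg1 in B cell-like and 0.797 for Osm in fibroblast-like cells. Without the 5 cells with most UMIs it was 1.63 for Socs3 in gamma-delta T or innate lymphoid-like cells, 0.307 for Lrg1 and 0 for Il6 in interstitial macrophage-like cells, and 0 for Il6 and 0.139 for Osm in type 2 alveolar epithelial-like cells. With every cell weighing the same it was 1.33 for Socs3 in gamma-delta T or innate lymphoid-like cells, and 0.848 for Il6 and 0.949 for Osm in type 2 alveolar epithelial-like cells. With each library clustered alone Hp in type 2 alveolar epithelial-like cells was at 1.001, no difference in either direction. The cause was not tested, except that leaving out 5 cells shows where those cells held the level. No paired analysis was possible because each group has 1 library. Depth limits low genes: a gene with 50 UMIs in a class has a wide interval, and animals cannot be told apart from the libraries.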

Other observations

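Lifr, the receptor chain of leukaemia inhibitory factor, was at 234 CPM in S100A4-11 and 222 CPM in IgG endothelial-like cells (1.05, 1.0 to 1.10) and at 79.1 CPM and 112 CPM in fibroblast-like cells (0.706, 0.610 to 0.815). Ebi3, a subunit of interleukin-27 and interleukin-35, was at 96.8 CPM in S100A4-11 and 93.5 CPM in IgG neutrophil-like cells (1.04, 0.953 to 1.12) and at 56.2 CPM and 93.3 CPM in dendritic cell-like cells (0.603, 0.461 to 0.784). Il27ra, the interleukin-27 receptor chain, was at 132 CPM in S100A4-11 and 117 CPM in IgG T cell-like cells (1.13, 0.984 to 1.30).

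In pericyte- or smooth muscle-like cells 6 of 9 acute-phase proteins with 50 UMIs were past the fold lower in S100A4-11, against 4.77% of all genes of the class. They were the members Hp and Lrg1, and Lcn2, Serpina3g, Serpina3f and Cp, the gene of the copper-carrying protein ceruloplasmin. Serpina3g was at 46.6 CPM in S100A4-11 and 80.9 CPM in IgG and Cp at 8.14 CPM and 21.5 CPM. S100a9 was at 1524 CPM in S100A4-11 and 2399 CPM in IgG cells of this class, and its part in these values was not tested.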
